A study of Mus musculus with 29 samples.

Results

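Potassium, calcium and transient receptor potential (TRP) channels are pore proteins that let cations pass through membranes. The channel genes described here comprise every entry whose symbol starts with Kcn (potassium channels and their partners), Cacn (voltage-gated calcium channels) or Trpc, Trpm or Trpv followed by a digit (TRP channels). They number 146 entries with 145 distinct names of the 24732 entries in the expression tables of wild-type and Pax5-/- pro-B cells. The group was proposed because one of its genes, Kcng1, was higher in Pax5-/- cells, so Kcng1 is described below with no test, whereas the other members entered by name alone.

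The series studies B cell acute lymphoblastic leukemia driven by the PAX5-JAK2 fusion and includes RNA-seq of pro-B cells, the earliest B cell progenitors committed to the lineage by the transcription factor Pax5. The 3 groups of C57BL/6 mouse libraries used here all came from cells sorted ex vivo. They were wild-type (3 libraries), Pax5(-/-) without functional Pax5 (2 libraries) and Pax5(+/+) Meox2-cre (3 libraries). The Meox2-cre libraries came from pooled cells of mice at 3 weeks of age that carried Cre in the Meox2 locus. The study describes the Cre expression from this locus as ubiquitous. The sorting gates of the study differed between pro-B cells and Pax5-deficient progenitors, which were selected as Ly6D+ among other markers, so the gate and the genotype cannot be told apart. Ages of the wild-type and Pax5(-/-) mice are not given in the sources used here, and nothing says whether the libraries of a group came from separate animals, so p-values measure only the spread between these libraries. Values are TPM, the share of a library's transcripts after scaling for transcript length, so levels of different genes can be compared. In bulk RNA, fewer cells that express a gene and less RNA per cell cannot be told apart.

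A potassium channel of the Kv class is built of several pore subunits around a common pore and opens when the membrane depolarizes. Kcng1 belongs to the silent Kv subunits, which form no working channel alone and assemble with subunits of the Kv2 class such as that encoded by Kcnb2. Tandem-pore (K2P) channels carry the background potassium current that sets the resting potential. A voltage-gated calcium channel has a pore subunit (Cacna1 genes), a beta subunit that brings it to the membrane (Cacnb genes) and an extracellular alpha2delta subunit (Cacna2d genes). In lymphocytes, potassium channels such as those encoded by Kcna3 and Kcnn4 hold the membrane potential that drives calcium into the cell.

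Pax5 itself stood at 342, 386 and 391 TPM in the wild-type, at 376 to 397 TPM in Meox2-cre libraries and at 43.0 and 39.1 TPM in those labelled Pax5(-/-). These are gene-level values that do not show which exons were deleted. Ly6d, a sorting marker of the Pax5-deficient progenitors, was at 190 to 270 TPM in the wild-type and at 2258 and 3033 TPM in Pax5-/- libraries. Of 10 B lineage markers, 9 were lower without Pax5 by the adjusted p and none was higher. The first wild-type library held less of the myeloid marker genes than the other wild-type libraries, with a sum of 52.8 TPM over 10 genes. The other wild-type libraries held 270 and 205 TPM and the Pax5-/- libraries 72.2 and 106 TPM. In the Meox2-cre libraries, which were processed separately, this sum was higher, at 632, 1254 and 461 TPM. The summed level of 10 T and NK cell markers was 71.3 to 85.2 TPM in the wild-type and 222 and 234 TPM in Pax5-/- libraries, most of it from Lck. Of the 5 tested markers of this list, Lck, Nkg7 (mean of 4.06 against 20.3 TPM), Cd4 (0.534 against 4.93 TPM) and Gzma (0.523 against 4.30 TPM) were higher by the adjusted p and 1 was lower, whereas the T cell gene Cd3e was listed at 0 in both Pax5-/- libraries. The sum of 8 plasmacytoid dendritic cell markers was 400 to 467 TPM and 244 and 361 TPM, and its members moved in opposite directions. Irf8 (237 against 59.4 TPM) and Tcf4 (84.7 against 52.3 TPM), which made up most of the sum in the wild-type, were lower, and Siglech (0.600 against 5.43 TPM), Cox6a2 (4.48 against 30.6 TPM) and Runx2 (1.16 against 8.91 TPM) were higher, with 2 further markers not passing. Markers of erythroid cells and megakaryocytes (10 listed, 9 found) summed to 37.2 to 89.4 TPM and to 45.9 and 41.6 TPM, with Hbb-b1 at 0 in all 5 libraries, and 6 mast cell and basophil markers to 3.4 to 11.1 TPM and 6.5 and 15.9 TPM. By the adjusted p, 1 of 9 tested myeloid markers was higher and 2 lower, 1 of 7 erythroid and megakaryocyte markers higher and 3 lower, and neither of 2 mast cell and basophil markers passed. All these marker counts stand beside 15.6% of all 12066 genes tested that were higher and 21.5% that were lower. The part of these cells in the results was not tested.

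Most channel genes were at or near 0. Of the 146 entries, 42 were listed at 0 in all 5 wild-type and Pax5-/- libraries and 117 had a mean of at most 1 TPM in both genotypes, with no single value among these above 1.47 TPM. The remaining 29 entries, Kcng1 among them, were tested. In the wild-type, 27 entries had a mean above 1 TPM, 13 above 5 TPM, 10 above 10 TPM and 3 above 100 TPM. These 3 were Kcnn4, Trpc4ap and Kcnab2. In the Pax5-/- libraries 21 entries had a mean above 1 TPM and 14 above 5 TPM.

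Of the 28 tested members other than Kcng1, 2 were called higher and 1 lower in Pax5-/- cells at an adjusted p below 0.05, a change above 3-fold and an average over 5 TPM in either genotype (limma, Benjamini-Hochberg adjustment over 12066 genes). Kcnk12 and Cacnb2 were the higher genes and Cacna1e the lower gene. Of all 12066 genes tested, 2.71% were called higher and 3.15% lower. By the adjusted p alone, 9 members were higher and 10 lower, against 15.6% of all genes higher and 21.5% lower. Without either one of the Pax5-/- libraries, fewer members passed in each direction, and so did fewer of all genes. The median log2 fold change of these 28 members was -0.16 and that of all genes -0.12. The values of the genotypes did not overlap for 22 of the 28 members, and for 63.4% of all genes. The counts are descriptive, because the members that passed the filter include genes that passed through their higher group.

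The promoters of the 3 called genes are shown because they are the regions next to which transcription of these genes starts. They run from 250 bases before to 50 bases after the start and were taken from RefSeq on GRCm38, where 111 of the 145 names matched. No promoter is given for Kcng1. Capitals mark the GC box GGGCGG on either strand. The TATA box TATAAA and the core GCGTGAC of the Pax5 recognition sequence were searched on both strands as well, and no match was present in these 4 windows. The printed matches do not overlap another motif.
Kcnk12 (chr17:87797945-87798244, minus strand): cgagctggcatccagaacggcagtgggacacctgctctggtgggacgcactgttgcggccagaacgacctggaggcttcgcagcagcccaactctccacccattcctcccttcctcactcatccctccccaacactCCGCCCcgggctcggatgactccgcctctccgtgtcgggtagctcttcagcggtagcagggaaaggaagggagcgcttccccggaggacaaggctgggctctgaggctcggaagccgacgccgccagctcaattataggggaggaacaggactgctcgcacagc
Cacnb2, first start (chr2:14604056-14604355, plus strand): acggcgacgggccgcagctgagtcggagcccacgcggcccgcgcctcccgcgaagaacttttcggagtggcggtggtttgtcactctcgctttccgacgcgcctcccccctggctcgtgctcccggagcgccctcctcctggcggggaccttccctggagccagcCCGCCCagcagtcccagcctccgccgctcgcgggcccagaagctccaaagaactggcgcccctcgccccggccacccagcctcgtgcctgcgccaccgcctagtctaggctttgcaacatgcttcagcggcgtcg
Cacnb2, second start (chr2:14823842-14824141, plus strand): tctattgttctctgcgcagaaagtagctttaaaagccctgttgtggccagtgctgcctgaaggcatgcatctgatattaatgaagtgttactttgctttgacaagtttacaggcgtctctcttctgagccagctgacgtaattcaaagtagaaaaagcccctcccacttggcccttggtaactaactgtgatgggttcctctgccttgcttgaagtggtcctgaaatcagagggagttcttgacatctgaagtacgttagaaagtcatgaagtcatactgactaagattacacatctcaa
Cacna1e (chr1:154725871-154726170, minus strand): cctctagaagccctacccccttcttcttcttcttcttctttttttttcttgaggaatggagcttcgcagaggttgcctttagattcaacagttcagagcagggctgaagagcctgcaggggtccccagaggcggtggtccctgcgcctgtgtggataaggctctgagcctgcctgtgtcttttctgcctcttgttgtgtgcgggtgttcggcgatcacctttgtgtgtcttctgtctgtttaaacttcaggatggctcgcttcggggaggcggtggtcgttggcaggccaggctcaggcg

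The Kcnk12 promoter was 64.3% G or C with 20 CpG dinucleotides. The start of Cacnb2 that lies first on the chromosome had 71.7% and 35, whereas the second had 44.0% and 4, so the gene has a CpG-rich and a CpG-poor start. The gene-level TPM does not tell which of them was used. The Cacna1e promoter had 55.3% and 11. A GC box was found in 35.7% of all 32851 promoter windows, TATAAA in 13.6% and GCGTGAC in 2.09%. Among channel genes, the 30 windows of the 20 matched genes above 1 TPM in either genotype had a median of 61.5% G or C and 18 CpG, the 119 windows of the other 91 genes 57.7% and 9, and all windows 52.7% and 7. GC boxes were found in 50.0% and 42.0% of the windows in these 2 sets of channel genes. A match of letters is a description and not a binding site.

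Kcng1 (mm9 chr2:168085617-168107236, minus strand) stood at 13.6, 24.6 and 15.2 TPM in the wild-type libraries and at 172 and 125 TPM in Pax5-/- libraries. The groups did not overlap, and the log2 fold change was 3.06. In the Meox2-cre libraries Kcng1 was at 22.2, 20.6 and 22.9 TPM, within the range of the wild-type. It provided 1.95% to 2.92% of the summed TPM of all channel genes in the wild-type libraries and 17.3% and 13.5% in the Pax5-/- libraries. In Pax5-/- cells it thereby joined Kcnn4, Trpc4ap, Kcnab2 and Trpv2 as one of the 5 highest channel entries, a place held by Kcna3 in the wild-type.

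None of the other silent subunits was expressed at a comparable level. Kcng3, Kcng4, Kcns2, Kcns3 and Kcnv1 were listed at 0 in all 5 libraries. Kcnb2 was listed at 0 in 4 of the 5 libraries and at 0.0238 TPM in the first wild-type library. Kcng2 reached at most 0.0882 TPM, Kcns1 at most 0.135 TPM and Kcnv2 at most 0.0241 TPM. Kcnf1 was at 0.0529, 0.182 and 0.0767 TPM in the wild-type and listed at 0 in both Pax5-/- libraries, whereas it was at 0.699 to 1.09 TPM in the Meox2-cre libraries. Kcng1 accounted for at least 97.9% of the summed TPM of silent subunits in each of the wild-type and Pax5-/- libraries.

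Kcnk12, which encodes a K2P subunit (mm9 chr17:88145177-88197334, minus strand), had the largest fitted change of the 28 tested members other than Kcng1. It was at 0.454, 1.15 and 0.752 TPM in the wild-type and at 37.0 and 54.8 TPM in Pax5-/- libraries. Each Pax5-/- value was far above every wild-type value, and the Meox2-cre libraries held 0.296 to 0.534 TPM. Expression increased by 5.19 ± 0.30 (log2, SE, n = 3 and 2), and the limma adjusted p was 2.6e-05. With a wild-type mean of 0.784 TPM, Kcnk12 entered the test only through the Pax5-/- group, so this p is descriptive.

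The composition of the K2P family differed between the genotypes. Its summed level was 21.6 to 25.6 TPM in the wild-type and 64.4 and 77.8 TPM in Pax5-/- libraries, with Kcnk12 supplying 1.90% to 4.47% of it in the former and 57.5% and 70.5% in the latter. Kcnk5, an acid-sensitive background channel, led the family in the wild-type at 13.4, 12.0 and 10.3 TPM and stood at 19.9 and 17.2 TPM without Pax5, an increase of 0.62 ± 0.17 (log2, SE, limma adjusted p = 0.027). Kcnk6 was lower, at 7.03, 8.11 and 7.03 TPM against 4.89 and 3.69 TPM (-0.73 ± 0.21 log2, limma adjusted p = 0.029). The significance of Kcnk5 and Kcnk6 was lost when either Pax5-/- library or the second wild-type library was left out, with adjusted p-values of 0.066 to 0.26.

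Kcnk10, a mechanosensitive K2P channel, was at 1.75, 3.87 and 2.32 TPM in the wild-type and at 0.0585 and 0 TPM in Pax5-/- libraries. Both Pax5-/- values were near 0 (-2.52 ± 0.35 log2, limma adjusted p = 0.0015). Kcnk3, another acid-sensitive channel, was at 0.233, 0.391 and 0.482 TPM in the wild-type and rose to 2.49 and 1.89 TPM (1.63 ± 0.29 log2, limma adjusted p = 0.0045). The Kcnk3 entry carries a mark for overlap, although no gene of the GENCODE M1 annotation shares its exon bases. Of the 5 tested K2P genes, 3 were higher and 2 lower by the adjusted p, beside 15.6% and 21.5% of all genes. Kcnk12 and Kcnk3 had wild-type means of 0.784 and 0.369 TPM and entered the test only through the Pax5-/- group in which they were high. Kcnk10, with a Pax5-/- mean of 0.0292 TPM, entered only through the wild-type group in which it was high. The p-values of Kcnk3 and Kcnk10 are therefore descriptive as well. The other 9 entries of the family were not above 1 TPM in either genotype.

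**Figure D1:**
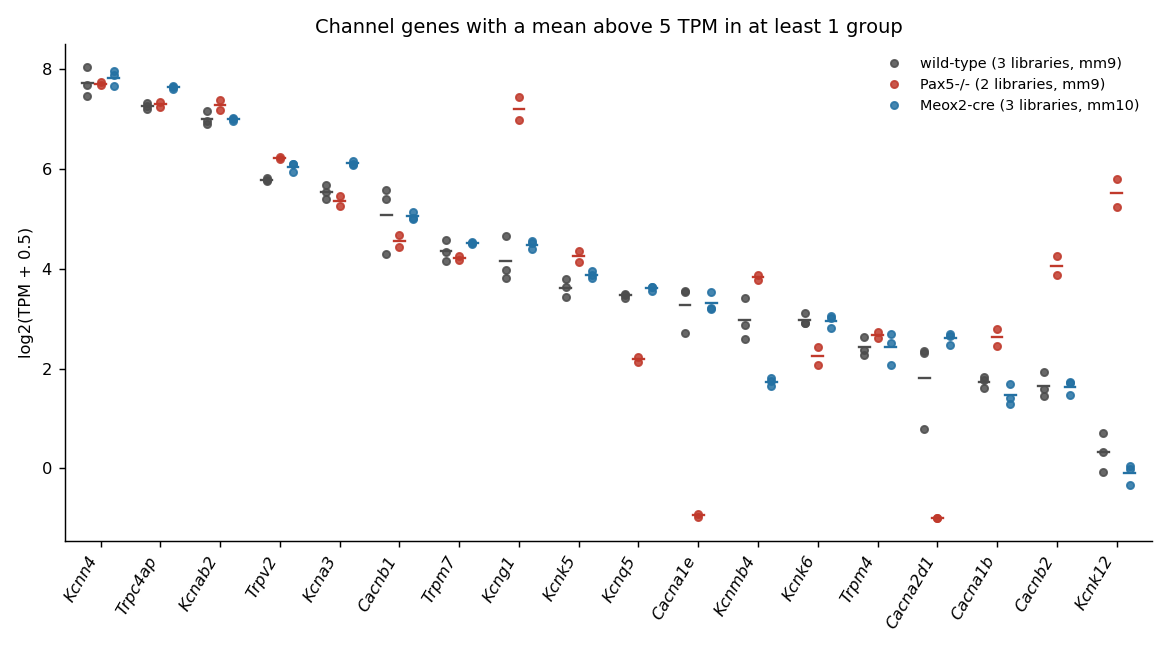
Each point is 1 library and each dash a group mean, on a log2(TPM + 0.5) axis, for the 18 channel genes with a mean above 5 TPM in wild-type (grey), Pax5-/- (red) or Meox2-cre (blue) pro-B cells, ordered by the wild-type mean. Kcng1, Kcnk12 and Cacnb2 stand higher and Cacna1e and Cacna2d1 lower in both red points, whereas Kcnn4, Trpc4ap and Trpm7 stand at nearly the same height in the wild-type and Pax5-/- groups.

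The calcium channel pore subunits had overlapping sums in both genotypes but a different composition. Their summed level was 15.4, 20.6 and 19.4 TPM in the wild-type and 15.5 and 16.4 TPM in Pax5-/- libraries. Of the 10 pore genes 5 were tested and all 5 passed the adjusted p, beside 15.6% of all genes higher and 21.5% lower. Cacna1a, Cacna1b and Cacna1h were higher and Cacna1e and Cacna1i lower. Cacna1e and Cacna1i entered the test only through the wild-type group in which they were high, so their passing is descriptive.

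Cacna1e, which encodes the pore of the R-type channel (mm9 chr1:156239649-156573049, minus strand), was the main pore gene of wild-type cells at 6.08, 11.3 and 11.2 TPM. In the Pax5-/- libraries it was at 0.0117 and 0.0323 TPM, and in the Meox2-cre libraries at 8.70 to 11.1 TPM. Its change of -4.21 ± 0.32 (log2, SE) had a limma adjusted p of 8.9e-05. With a Pax5-/- mean of 0.0220 TPM, Cacna1e entered the test only through the wild-type group, so this p is descriptive. Cacna1e supplied 39.5% to 57.5% of the pore subunit TPM in the wild-type and at most 0.196% in Pax5-/- libraries. Cacna1i, a T-type channel that opens at small depolarizations, followed the same direction from 3.58, 2.54 and 2.36 TPM to 0 and 0.0251 TPM (-2.68 ± 0.29 log2, limma adjusted p = 4.5e-04). Cacna1i likewise entered the test only through the wild-type group, with a Pax5-/- mean of 0.0126 TPM, so its p is descriptive.

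The pore genes that remained in Pax5-/- cells were higher there. Cacna1a, the pore of P/Q-type channels, was at 1.33, 1.68 and 1.20 TPM in the wild-type and at 4.74 and 4.49 TPM in Pax5-/- libraries (1.43 ± 0.24 log2, limma adjusted p = 0.0034). Cacna1b, the pore of N-type channels, was at 2.54, 2.90 and 3.07 TPM and at 6.39 and 5.00 TPM (0.89 ± 0.22 log2, limma adjusted p = 0.018). Neither gene overlapped between the groups.

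Cacna1h, a further T-type pore, was at 1.38, 1.42 and 0.297 TPM in the wild-type and at 3.71 and 6.26 TPM in Pax5-/- libraries. Its increase of 1.91 ± 0.44 (log2, SE) passed the test (limma adjusted p = 0.013), but its mean of 4.98 TPM lay just below the 5 TPM needed for a call, and it was called with quantile normalization or median-ratio rescaling. It shares exon bases with Tpsg1 on the other strand, which was listed at 0 in all 5 libraries, and the counting used no strand. Cacna1a, Cacnb1, Cacnb2 and Kcnq5 likewise share exon bases with an annotated gene on the other strand, whose reads cannot be told apart from theirs. Without either Pax5-/- library, Cacna1b and Cacna1h no longer passed, with adjusted p-values of 0.063 to 0.16. Together, Cacna1a, Cacna1b and Cacna1h provided nearly all pore subunit TPM of the Pax5-/- cells, at 30.5% and 27.3%, 41.1% and 30.4%, and 23.9% and 38.0%, respectively.

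The beta and alpha2delta subunits changed as well. Cacnb2 (mm9 chr2:14525933-14909535, plus strand) was at 2.50, 3.29 and 2.23 TPM in the wild-type, at 2.26 to 2.84 TPM in the Meox2-cre libraries and at 18.5 and 14.2 TPM in Pax5-/- libraries. It increased by 2.41 ± 0.23 (log2, SE, limma adjusted p = 2.9e-04), with no overlap of the groups. The increase did not pass a test against 3-fold itself (limma treat).

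Cacnb1 was the most abundant beta subunit gene in all 8 libraries, and its levels of 19.1, 47.0 and 41.4 TPM in the wild-type and 24.9 and 21.0 TPM in Pax5-/- libraries overlapped. The change of -0.54 ± 0.35 (log2, SE) did not pass the test (limma adjusted p = 0.26, 95% interval -1.36 to 0.28). Without the first wild-type library, the change of Cacnb1 was -0.93 (log2) with a limma adjusted p of 0.0045. That library was also low in myeloid markers, and a relation between these markers and Cacnb1 was not tested. The ratio of Cacnb2 to Cacnb1 was 0.0538 to 0.131 in the wild-type and 0.744 and 0.675 in the Pax5-/- libraries. Cacnb3 and Cacnb4 were at or below 0.515 TPM in these libraries.

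Cacna2d1, whose product is the alpha2delta subunit bound by gabapentin, was at 1.23, 4.44 and 4.59 TPM in the wild-type, at 5.05 to 6.00 TPM in the Meox2-cre libraries and listed at 0 in both Pax5-/- libraries. The difference passed the test (limma adjusted p = 0.0040) but not without either Pax5-/- library (adjusted p = 0.055 and 0.064), and the first wild-type library was again the lowest. Cacna2d1 entered the test only through the wild-type group, so its p is descriptive. Cacna2d4 was at 3.75, 4.81 and 5.02 TPM and at 1.35 and 1.44 TPM without Pax5 (-1.40 ± 0.23 log2, limma adjusted p = 0.0035). Among the 4 tested accessory subunits of calcium channels, 1 gene was therefore higher, 2 were lower and Cacnb1 did not pass. The shares over all genes tested were 15.6% higher and 21.5% lower by the adjusted p.

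**Figure D2:**
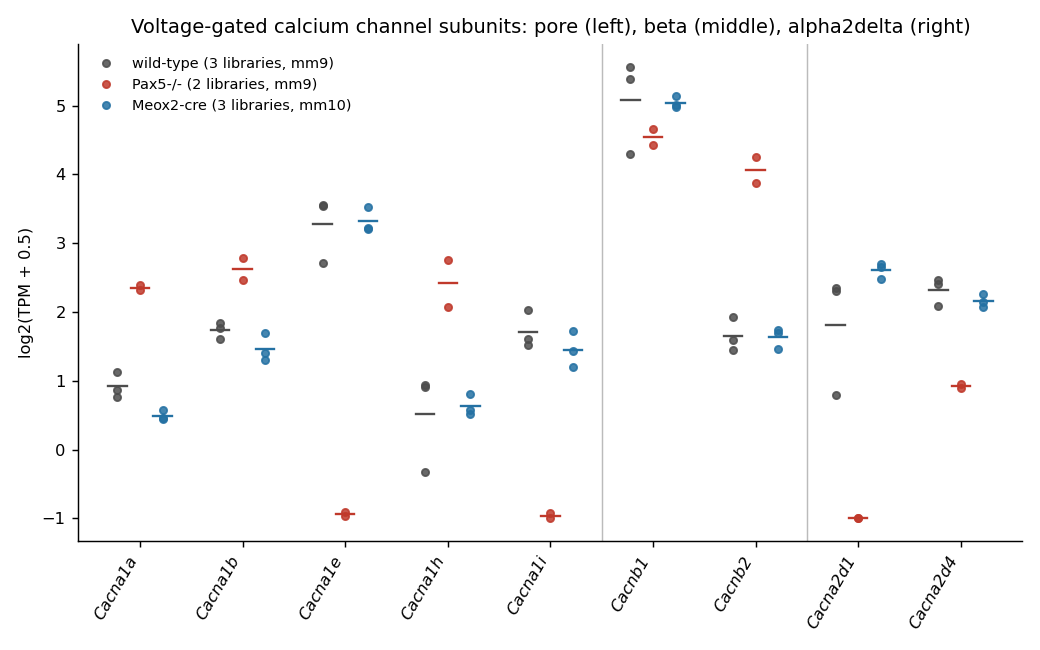
Points are single libraries and dashes group means on a log2(TPM + 0.5) axis for the 9 tested calcium channel genes, with pore subunits on the left, beta subunits in the middle and alpha2delta subunits on the right. A value of -1 stands for 0 TPM. Cacna1e, Cacna1i and Cacna2d1 lie at or near -1 in Pax5-/- cells, where Cacna1a, Cacna1b, Cacna1h and Cacnb2 lie above the wild-type and Meox2-cre points.

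The Kv pore subunits were led by Kcna3, the lymphocyte Kv channel. Kcna3 was at 41.6, 50.5 and 45.7 TPM in the wild-type and at 43.1 and 37.9 TPM in Pax5-/- libraries. The groups overlapped, and the change of -0.18 did not pass the test (limma adjusted p = 0.32, 95% interval -0.49 to 0.13). It supplied 70.3% to 72.1% of the TPM of the 31 Kv pore entries in the wild-type and 84.3% and 82.7% in Pax5-/- cells.

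Kcnq5, a subunit of the slowly activating M-type current, was at 10.7, 10.7 and 10.2 TPM in the wild-type and fell to 4.20 and 3.89 TPM (-1.28 ± 0.17 log2, limma adjusted p = 0.0014). Kcna5, a delayed rectifier subunit, was at 2.82, 4.34 and 1.75 TPM in the wild-type and at 0 and 0.0273 TPM in Pax5-/- libraries (-2.69 ± 0.37 log2, limma adjusted p = 0.0014). Kcna5 entered the test only through the wild-type group, with a Pax5-/- mean of 0.0136 TPM, so its p is descriptive. Of the 5 tested Kv pore genes, Kcnq5 and Kcna5 were lower and the other 3 did not pass. Of all genes tested, 15.6% were higher and 21.5% lower by the adjusted p.

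Kcnn4, the calcium-activated potassium channel of lymphocytes and red blood cells, was the highest channel gene of every library. It was at 175, 264 and 205 TPM in the wild-type, at 212 and 204 TPM in Pax5-/- libraries and at 200 to 247 TPM in the Meox2-cre libraries. The Pax5-/- values lay within the wild-type range, and the log2 change of -0.02 had a 95% interval of -0.41 to 0.36 (limma adjusted p = 0.92). After rescaling by median ratios it was 0.091. The pore gene Kcnma1 of the large-conductance calcium-activated channel was at most 0.0323 TPM in the 5 libraries.

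Among accessory subunits of potassium channels, Kcnab2, a beta subunit of Kv channels with an oxidoreductase fold, was at 142, 123 and 119 TPM in the wild-type and at 167 and 144 TPM in Pax5-/- libraries. The groups did not overlap, but the difference of 0.28 ± 0.12 (log2, SE) did not pass (limma adjusted p = 0.11, 95% interval -0.00 to 0.56). Kcnmb4, a beta subunit of the large-conductance channel, was at 10.2, 5.56 and 6.82 TPM and at 13.3 and 14.2 TPM (0.87 ± 0.26 log2, limma adjusted p = 0.033). It lost significance without any one of 4 libraries (adjusted p of 0.067 to 0.24). It also differed between the tables, with 2.64 to 3.00 TPM in the Meox2-cre libraries, where the antisense transcript Kcnmb4os2 was listed apart at 0.822 to 1.38 TPM. The entry of the wild-type and Pax5-/- tables carries a mark for overlap and shares exon bases with 2 annotated genes on the other strand, so its value is uncertain. Kcnip3, named after its values were seen, was lower (1.26 ± 0.54 TPM, SD, n = 3, against 0.184 and 0.102 TPM, limma adjusted p = 0.016). Kcnip3 entered the test only through the wild-type group, so this p is descriptive.

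The inward rectifiers, which pass potassium more easily into the cell than out of it, were nearly silent, and only Kcnj2 of 15 entries was tested. Kcnj2, likewise named after its values were seen, was at 0.651, 1.48 and 1.55 TPM in the wild-type and at 0.0272 and 0.0150 TPM in Pax5-/- libraries (limma adjusted p = 0.0091). Kcnj2 was lower in both Pax5-/- libraries than in each wild-type library. It entered the test only through the wild-type group, so its p is descriptive.

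Of the 21 TRP channel entries, 3 were tested. Trpv2, a cation channel of leukocytes, was the highest at 55.9, 53.5 and 54.6 TPM in the wild-type and 72.4 and 74.5 TPM in Pax5-/- libraries. The increase was small (0.42 ± 0.10 log2) and passed the test (limma adjusted p = 0.014), but not without either Pax5-/- library (adjusted p = 0.094 and 0.13). Trpm7, a magnesium-permeable channel fused to a kinase, was at 17.4, 19.8 and 23.4 TPM and at 18.7 and 17.6 TPM, with overlapping groups (limma adjusted p = 0.53, 95% interval of the log2 change -0.53 to 0.24). Trpm4, a calcium-activated cation channel, was at 4.32, 5.73 and 4.67 TPM and at 5.58 and 6.18 TPM (limma adjusted p = 0.39, 95% interval -0.24 to 0.73). No TRPC gene was above 1 TPM, and the 7 TRPC entries together summed to at most 0.170 TPM in each wild-type and Pax5-/- library.

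Trpc4ap matches the name rule but encodes an adaptor of a ubiquitin ligase and no channel subunit. It was at 147, 159 and 153 TPM in the wild-type and at 151 and 162 TPM in Pax5-/- libraries (limma adjusted p = 0.78, 95% interval of the log2 change -0.18 to 0.26). Myh7b, which shares exon bases with it on the other strand, was at most 0.248 TPM. The other 4 entries that encode no subunit had means of at most 0.784 TPM.

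**Figure D3:**
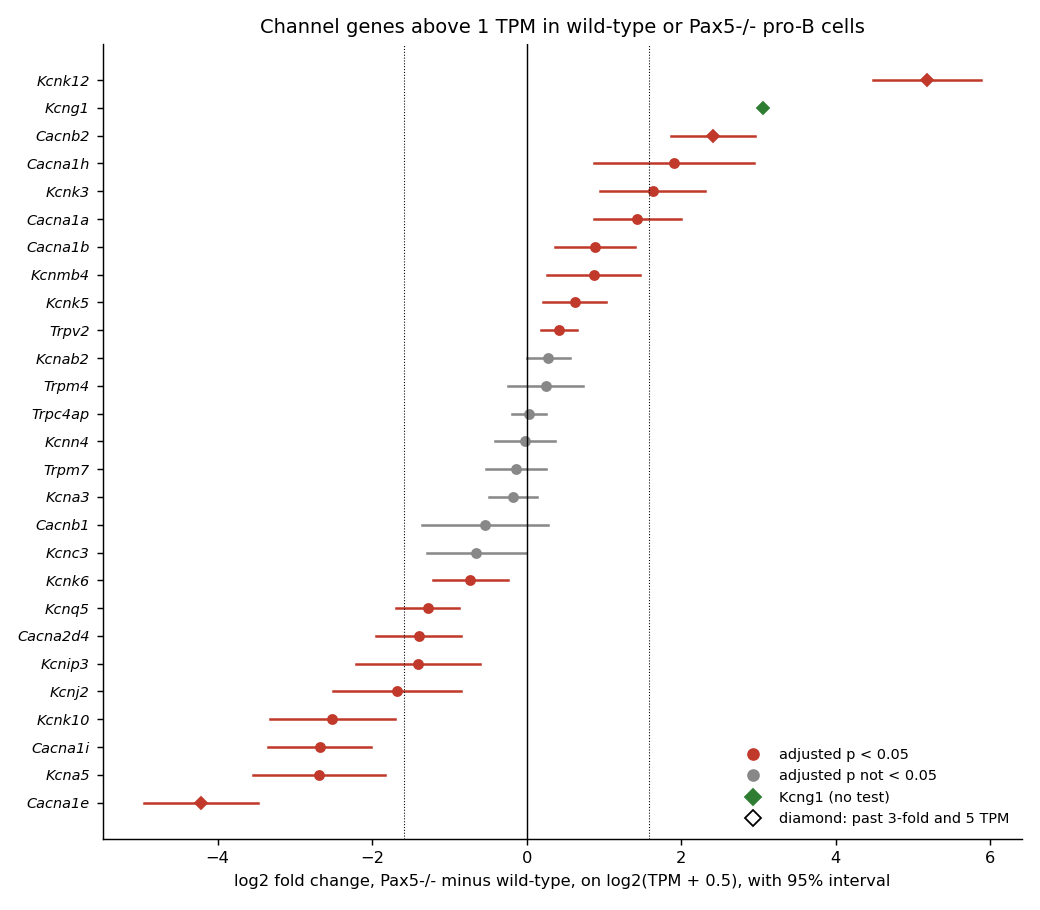
Fitted log2 fold changes (Pax5-/- minus wild-type, on log2(TPM + 0.5)) with 95% intervals for 27 of the 29 tested channel genes, where Kcng1 is drawn without an interval and Cacna2d1, listed at 0 in Pax5-/- cells, is not drawn. Red marks an adjusted p below 0.05, diamonds a change past 3-fold with a mean above 5 TPM, and dotted lines 3-fold. Changes run from -4.21 (Cacna1e) to 5.19 (Kcnk12), and the 8 grey genes lie between -0.65 and 0.28.

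Of the 9 members above 10 TPM in the wild-type other than Kcng1, 3 passed the test (Kcnq5, Kcnk5 and Trpv2). Among all genes tested, at any level, 15.6% were higher and 21.5% lower by the adjusted p. The largest change among the 9 members was 1.28 on the log2 scale (Kcnq5, lower). The summed TPM of all channel entries was 695, 841 and 748 in the wild-type and 993 and 929 in the Pax5-/- libraries. Without Kcng1 the sums were 681, 817 and 733 TPM against 821 and 804 TPM, so the second wild-type library lay between the Pax5-/- values. The 5 highest entries held 76.4% to 80.7% of the sum in each of the 8 libraries.

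**Figure D4:**
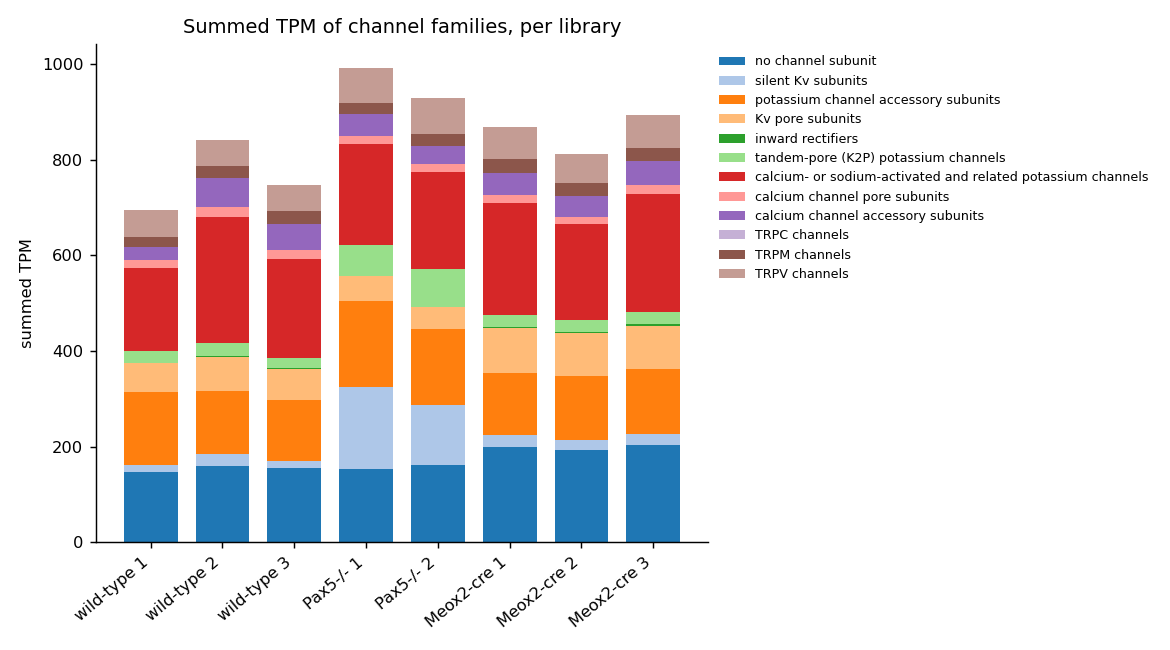
Stacked bars give the summed TPM of each channel family per library, starting at 0. The bars of silent Kv subunits (13.7 to 24.8 TPM in the wild-type, 172 and 125 TPM in Pax5-/- libraries) and K2P channels are taller in the Pax5-/- libraries, whereas the calcium- or sodium-activated potassium channels, almost all Kcnn4, range from 175 to 264 TPM in the wild-type and are at 212 and 205 TPM in Pax5-/- libraries.

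The Meox2-cre libraries gave levels from separate mice and a separate pipeline, so the 2 tables were set side by side with no test. Of 27 entries above 1 TPM in the wild-type, 22 (81.5%) had a Meox2-cre mean within 1.5-fold, against 84.6% of 11087 genes above 1 TPM found in both tables. The exceptions were Kcnmb4 (0.376 of the wild-type mean), Kcnk10 (0.581), Cacna1a (0.648), Cacna2d1 (1.64) and Kcnip3 (1.83). Over these 27 entries the log2 means of both tables had a Pearson r of 0.98 and a Spearman rho of 0.96, across genes that are not independent replicates and share sequence content and annotation.

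**Figure D5:**
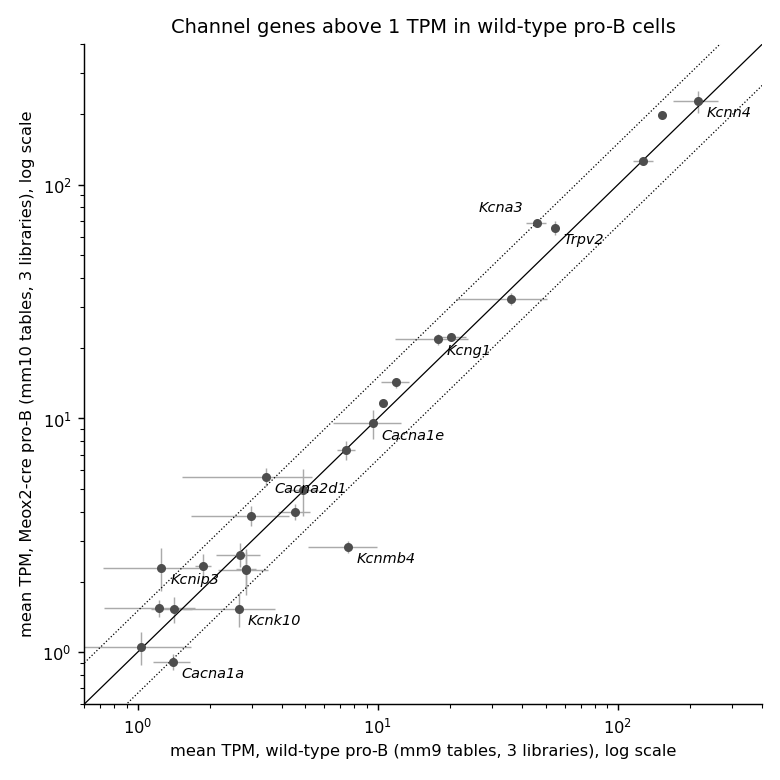
Mean TPM of the 27 channel genes above 1 TPM in wild-type pro-B cells (x axis, log scale) against their mean in Meox2-cre pro-B cells (y axis, log scale), with bars of 1 SD over 3 libraries each. The solid line marks equal values and dotted lines 1.5-fold. Kcng1 (17.8 and 21.9 TPM) and Cacna1e (9.52 and 9.52 TPM) lie near the solid line and Kcnmb4 (7.53 and 2.83 TPM) below the lower dotted line.

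Calcium that enters through a channel is met by other ion-handling genes, which were grouped by function. The counts of each group stand beside 15.6% of all genes higher and 21.5% lower by the adjusted p, and its median beside the -0.12 (log2) of all genes. Of 17 genes of store-operated calcium entry and release 14 were tested, 4 were higher and 4 lower by the adjusted p, with a median log2 change of -0.19. The called gene was Saraf (listed under its older symbol Tmem66), which closes store-operated entry, at 21.0, 30.4 and 26.9 TPM in the wild-type and 223 and 256 TPM in Pax5-/- libraries (3.19 ± 0.17 log2). Plcg2 and Plcg1, which generate the calcium-releasing messenger, had the highest wild-type means of this list, with log2 changes of 0.76 (limma adjusted p = 0.0013) and -0.66 (adjusted p = 0.0096).

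Of 18 pump and exchanger genes 12 were tested, 5 were higher and 5 lower by the adjusted p, with a median of -0.16. Atp1b1, a beta subunit of the sodium-potassium pump, was called lower, at 223, 246 and 242 TPM in the wild-type and 11.7 and 17.8 TPM in Pax5-/- libraries (-3.99 ± 0.17 log2).

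Of 29 other ion channel genes of leukocytes 23 were tested, 8 were higher and 6 lower by the adjusted p, with a median of 0.12. Mcoln2, a lysosomal relative of TRP channels, was called higher (4.80 to 8.45 TPM against 25.8 and 26.7 TPM), as was P2rx7, the ATP-gated channel (2.75 to 3.37 TPM against 15.4 and 16.0 TPM). Hvcn1, the proton channel, was called lower (53.9 to 103 TPM against 9.58 and 11.3 TPM). Of 17 genes of calcineurin, NFAT and calmodulin signalling 15 were tested, 2 were higher and 8 lower by the adjusted p, with a median of -0.45, and none was called. The calmodulin genes Calm3 and Calm2, which had the highest means of this list, changed by -0.69 and -0.56 on the log2 scale (limma adjusted p = 0.0016 and 0.015).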

How the data were processed

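Poly(A)-selected RNA of ex vivo sorted pro-B cells was sequenced by the study. After removal of ribosomal RNA reads, the authors aligned the wild-type and Pax5-/- reads to mm9 with TopHat 1.4.1a and the Meox2-cre reads to mm10 with STAR 2.4.2a (per the study's methods), counted reads per gene with featureCounts 1.5.0 and modified refGene annotations, and deposited 1 TPM table per library. Each TPM column sums to 1000000 over all listed genes, immunoglobulin and T cell receptor genes included. No counts are in these tables, so the absolute depth is unknown. From the commonest ratio of low values, relative depths were 1 to 1.03 for the wild-type libraries and 0.855 and 1.54 for the Pax5-/- libraries (scaled to the first wild-type library), so values near 0 are less precise in the shallower Pax5-/- library.

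The 3 wild-type and 2 Pax5-/- libraries were tested on the log2(TPM + 0.5) scale by limma 3.58.1 under R 4.3.3, with a trend in the empirical Bayes step, over genes averaging more than 1 TPM in either genotype, with Benjamini-Hochberg adjustment over all 12066 genes. Genes were called at an adjusted p below 0.05, a change above 3-fold on that scale, which understates changes of low genes, and an average over 5 TPM in either genotype. Immunoglobulin and T cell receptor genes were not called. Genes with a mean above 1 TPM in only 1 genotype entered the test through that genotype, so their p-values are descriptive. The script was tested on simulated data. With 5 libraries an exact permutation test has 10 splits and cannot give a p below 0.1, so none was run. The members and gene lists were chosen with earlier results of these data known. Genes were named by a fixed rule, which comprised Pax5, Kcng1, the silent Kv subunits and their partners, members with a mean above 5 TPM in any group, members called, members past the adjusted p with a mean above 2 TPM, and, of other lists, called genes and at most 2 others by mean TPM. Gene positions came from GENCODE M1 on NCBIM37 (mm9), and promoters from RefSeq on GRCm38.p6. The Meox2-cre labels give Pax5(+/+), whereas a supplementary sample list gives another genotype, and the labels were used. The ChIP-seq libraries of the series were not analysed here, and some genes that the naming rule covers are not reported here. Alternatives were other pseudocounts, filters, normalizations and variance settings, a 2-fold limit, a test against 3-fold and leaving out each library.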

Additional observations from a re-analysis of the deposited data

How the results depend on the processing

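No paired analysis was possible because the libraries carry no replicate numbers in their labels that would pair them across genotypes. Of 26 named members with a fitted change, 24 kept their direction under up to 13 alternatives. Kcnn4, which did not pass the test, changed sign under median-ratio rescaling (0.091), quantile normalization (0.061) and without wild-type replicate 2 (0.14) or Pax5-/- replicate 2 (0.0015), and ranged from -0.16 to 0.14 over the left-out libraries. Trpc4ap, which did not pass either, changed sign without Pax5-/- replicate 2 and ranged from -0.013 to 0.086 over the left-out libraries, with up to 0.15 under median-ratio rescaling. Outside left-out libraries, 3 members changed their side of the threshold, among them Kcnk6 and Kcnmb4, which no longer passed without a filter (adjusted p = 0.061 and 0.072). Of the members other than Kcng1, 1 was called higher in a test against 3-fold (Kcnk12), and 2 were called lower at a 2-fold limit (Cacna1e and Kcnq5). With quantile normalization or median-ratio rescaling 3 were called higher. By the adjusted p alone, 4 to 9 members were higher and 6 to 11 lower when 1 library was left out, both minima being reached without either Pax5-/- replicate. A filter at a mean above 5 TPM left 17 members to test, of which 6 were higher and 3 lower. The counts over all genes were 630 higher and 753 lower at 2-fold and 118 and 153 in the test against 3-fold. Median-ratio rescaling moved the median log2 change of all genes from -0.12 to -0.00, and the numbers of genes called from 327 higher and 380 lower to 373 and 343. Without the 5 entries that encode no channel subunit, the mean summed TPM of the channel genes was 607 instead of 761 in wild-type, 803 instead of 961 in Pax5-/- and 659 instead of 859 in Meox2-cre libraries.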
